A study of Homo sapiens with 4 samples.

Results

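The genes described here encode the subunits of the vacuolar ATPase (V-ATPase) and a set of lysosomal proteins, 39 of the 58243 genes in the files. The 39 genes were selected by name from these 2 functions, with results of the same data known. Of the values, the selection used the low FPKM of ATP6V1A with miR-1, so that value is given as a description. CTNS was included as a gene listed as a reporter target of miR-124. They comprise 11 genes of the V1 sector, 9 of the V0 sector and its accessory subunits, 6 lysosomal membrane proteins, 11 hydrolases and other lumenal proteins, and the transcription factors TFEB and TFE3. All 39 were found in the files, and 37 had at least 200 reads over the 4 libraries and are called tested members below, as genes past the same filter are called tested genes. The other 2, ATP6V1B1 and ATP6V0C, are given by their reads only.

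mRNA was sequenced from 293T cells, a human embryonic kidney line that carries the SV40 large T antigen, after transfection with a control RNA or with a mimic of miR-1, miR-122, or miR-124. A mimic is a synthetic RNA that acts as the mature miRNA. The labels place harvest at 48 h after transfection, and the methods give a shorter time. There was 1 library per condition, so no test between conditions was possible, no difference has a replicate check, and the 3 comparisons share the control RNA library. Intervals below are exact 95% Clopper-Pearson intervals on reads recovered from the deposited values, and they cover counting error between 2 libraries only.

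The V-ATPase pumps protons into lysosomes, endosomes, and secretory vesicles. Its cytosolic V1 sector hydrolyses ATP and turns a rotor, and its membrane V0 sector passes the protons. The low pH that results is needed by the acid hydrolases of the lysosome, and many of the genes for both are targets of TFEB and TFE3, which bind E-box-like elements near the start sites. miRNAs find their targets mainly by pairing of their seed, bases 2 to 8, with the 3′ UTR of an mRNA.

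The mature sequences of both miRNAs for which the reference holds an entry (RefSeq, GRCh38.p14) are printed 5′ to 3′ with the seed in capitals, since the sites below are read against them. The seeds of the pair differ, so they form no seed family.
miR-1: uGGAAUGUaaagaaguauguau
miR-122: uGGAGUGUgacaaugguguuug

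For each gene, the longest 3′ UTR in the annotation (GENCODE release 44, GRCh38) was scanned. The word for miR-1 was ACATTCCA, that for miR-122 was ACACTCCA, and GTGCCTTA, taken from the complementary sites of the study's reporter, stood for miR-124. All 8 letters make an 8mer, the first 7 a 7mer-m8, the last 7 a 7mer-A1, and the 6 shared by these a 6mer. The sites of the members on which the results turn are printed with the matching letters in capitals.
ATP6V1A, miR-1 7mer-m8, chr3:113809585-113809609, plus strand: cttatataaaacaaACATTCCtttg
ATP6V0A1, miR-1 7mer-m8, chr17:42522526-42522550, plus strand: gtcctcctgttcagACATTCCtatg
HEXA, miR-1 7mer-m8, chr15:72341116-72341140, minus strand: cataccttatggcaACATTCCtagc
LAMP2, miR-1 8mer, chrX:120426150-120426174, minus strand: ttaataaagatcatACATTCCAtac
ATP6V0A2, miR-122 8mer, chr12:123761526-123761550, plus strand: cagaaatacttagtACACTCCAcct
CTNS, miR-124 8mer, chr17:3661172-3661196, plus strand: cctgctaccagtctGTGCCTTAgag

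The depth was low. The deposited FPKM values (fragments per kb and 1000000 reads, RPKM for single reads) had been divided by between 5887055 reads (miR-122) and 9452232 reads (miR-1), with 6624306 in the control RNA library and 6465436 in that of miR-124. Reads per 1000000 of this divisor are called RPM. Without molecular identifiers reads are not independent molecules, and in bulk RNA fewer cells with a transcript and less of it per cell cannot be told apart. Tested members had from 432 reads (MCOLN1) to 11433 reads (PSAP) over the 4 libraries, and the median interval of a member reached 1.13-fold to 1.14-fold either way. Among the markers of the embryonic kidney line given here, WT1, EYA1, and LHX1 passed 200 reads, whereas NEFM had 167, PAX2 91, SALL1 63, and PAX8 12 reads in all. The lists for hepatocytes, macrophages and osteoclasts, and renal intercalated cells each summed to under 5 RPM, with FOXI1 at 0 reads. The muscle list summed to between 12.4 and 18.7 RPM and the neuronal list to between 10.8 and 18.5 RPM, with ACTN2 and SYT1 as their only genes past 200 reads. The log2 ratio to the control RNA followed the GC content of the 3′ UTR across all 11204 tested genes with such a region, with Spearman's rho of 0.62 for miR-124, 0.36 for miR-122, and 0.24 for miR-1. This is a description across genes, which share their libraries and are not replicates. The part of this trend in the results was not tested, and adjusted log2 ratios are given for the members past a threshold.

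A ratio of 1.5-fold or more was rare among the members. With miR-1, 1 of 37 tested members was lower by at least 1.5-fold (ATP6V1A), beside 5.05% of all 12734 genes tested, and 0 were higher, beside 1.06%. With miR-122, 1 was lower (ATP6V1C1), beside 2.51% of all genes, and 1 was higher (GAA), beside 1.45%. With miR-124, 0 were lower, beside 3.25%, and 0 were higher, beside 1.94%. A single gene of 37 is 2.70%, so each count of 1 or 0 differs from the background by about 1 or 2 genes at most, and for miR-1, which the selection used, the counts are a description only. The shares of all genes were smaller among genes with at least 1000 reads over the 4 libraries, a filter that 31 members passed. With miR-1, 1 of 31 was lower, beside 2.27%, and 0 were higher, beside 0.427%. With miR-122, 1 was lower, beside 0.899%, and 1 was higher, beside 0.366%. With miR-124, 0 were lower, beside 0.96%, and 0 were higher, beside 0.762%. Next to the threshold, ATP6V0A1 with miR-1 (0.677) and GAA with miR-124 (1.45) lay just outside it, and ATP6V1C1 (0.608) and GAA (1.56) with miR-122 just inside it.

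**Figure D1:**
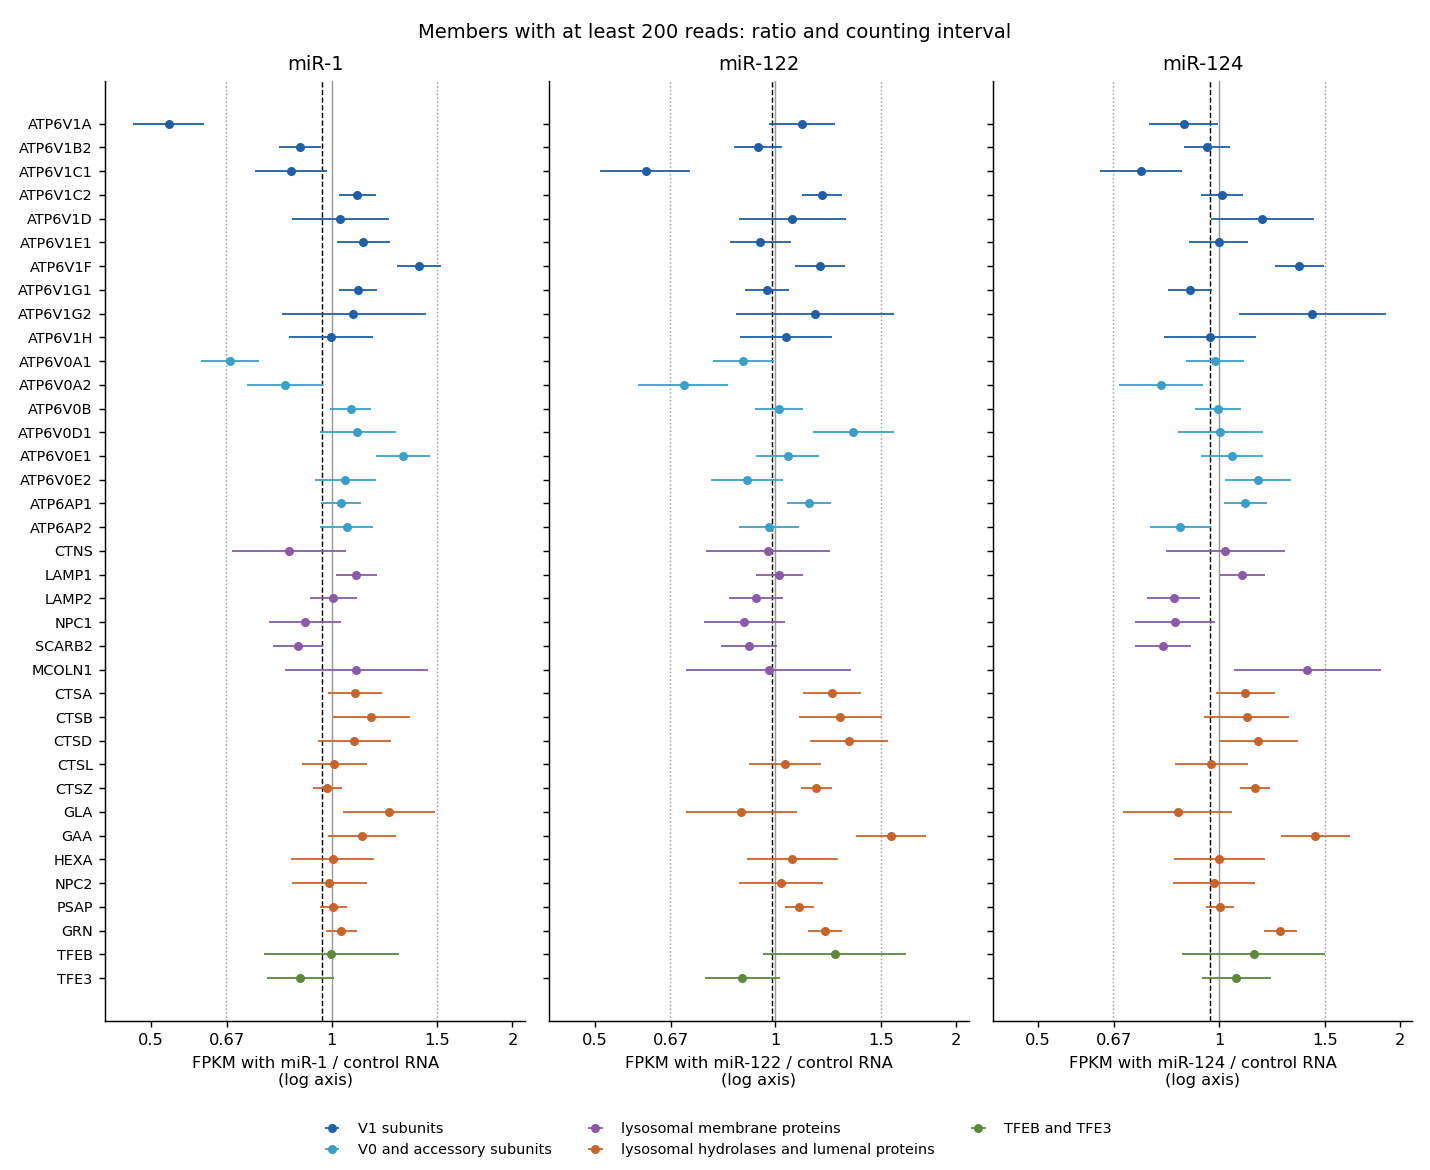
Ratio of FPKM with each mimic to the control RNA (log axis) for the 37 tested members, coloured by role group. Points are 1 library over 1 library, bars are 95% counting intervals, dotted lines mark 1.5-fold either way, and the dashed line is the median of all genes tested. ATP6V1A with miR-1, ATP6V1C1 with miR-122, and GAA with miR-122 lie outside the dotted lines.

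A second, lower threshold took ratios of at most 0.8 as lower and an increase of at least 25% as higher. With miR-1, 2 of 37 were lower (ATP6V1A and ATP6V0A1), or 5.41%, beside 18.5% of all genes, and 2 were higher (ATP6V1F and ATP6V0E1), beside 7.59%. With miR-122, 2 were lower (ATP6V1C1 and ATP6V0A2), beside 12.5%, and 5 were higher (ATP6V0D1, CTSB, CTSD, GAA, and TFEB), or 13.5%, beside 8.05%. With miR-124, 1 was lower (ATP6V1C1), beside 16.6%, and 5 were higher (ATP6V1F, ATP6V1G2, MCOLN1, GAA, and GRN), beside 10.3%. The 4 members that were lower at this threshold in any comparison were all V-ATPase subunits. Of the 37 tested members, 10 are V1 genes and 8 are V0 or accessory genes. The selection used the value of ATP6V1A, which is among the 4. In each comparison the share of members that were lower was below that of all genes. The share of all genes that were lower in any comparison is not given here. The median log2 ratio of the members with miR-1 was 0.05, beside -0.05 for all genes tested. It was 0.05 beside -0.02 with miR-122, and 0.01 beside -0.05 with miR-124.

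ATP6V1A encodes the catalytic A subunit of V1, which holds the ATP-hydrolysing sites. Its FPKM was 1.15 with the control RNA, 0.618 with miR-1, 1.28 with miR-122, and for miR-124 it was 1.01, from 380 to 497 reads. The miR-1 library was the lowest of the 4, and its counting interval for RPM did not overlap those of the other 3 libraries. The ratio to the control RNA was 0.536 (counting interval, 0.468 to 0.614), and 0.88% of all genes tested had a lower one. Against the mean of the other 2 mimics the ratio was 0.541, and adjusted for the trends with GC content, lengths, and reads the log2 ratio was -0.80, from -0.90. The gene lies on chromosome 3 from 113746770 to 113812056 on the plus strand, and its site printed above starts at base 173 of a 3′ UTR of 2629 bases. It was its only miR-1 site, and no site for miR-122 or miR-124 was found.

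ATP6V1B2 encodes the B subunit that alternates with A in the V1 head. Its levels were 55.9, 49.5, 52.3, and 53.3 RPM per kb of the representative transcript (transcript RPKM) in the libraries of the control RNA, miR-1, miR-122, and miR-124. Its ratio with miR-1 was 0.885 (0.816 to 0.960). On the same scale, the levels of ATP6V1A were 16.4, 8.79, 18.2, and 14.3. The A and B subunits enter the complex in equal number, and the level of ATP6V1A mRNA was the lower of the pair in every library. Among the remaining V1 subunits, ATP6V1D, ATP6V1E1, ATP6V1G1, ATP6V1G2, and ATP6V1H had ratios with miR-1 between 0.997 and 1.13. Apart from ATP6V1G2, their ratios with the other mimics lay between 0.895 and 1.18.

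**Figure D2:**
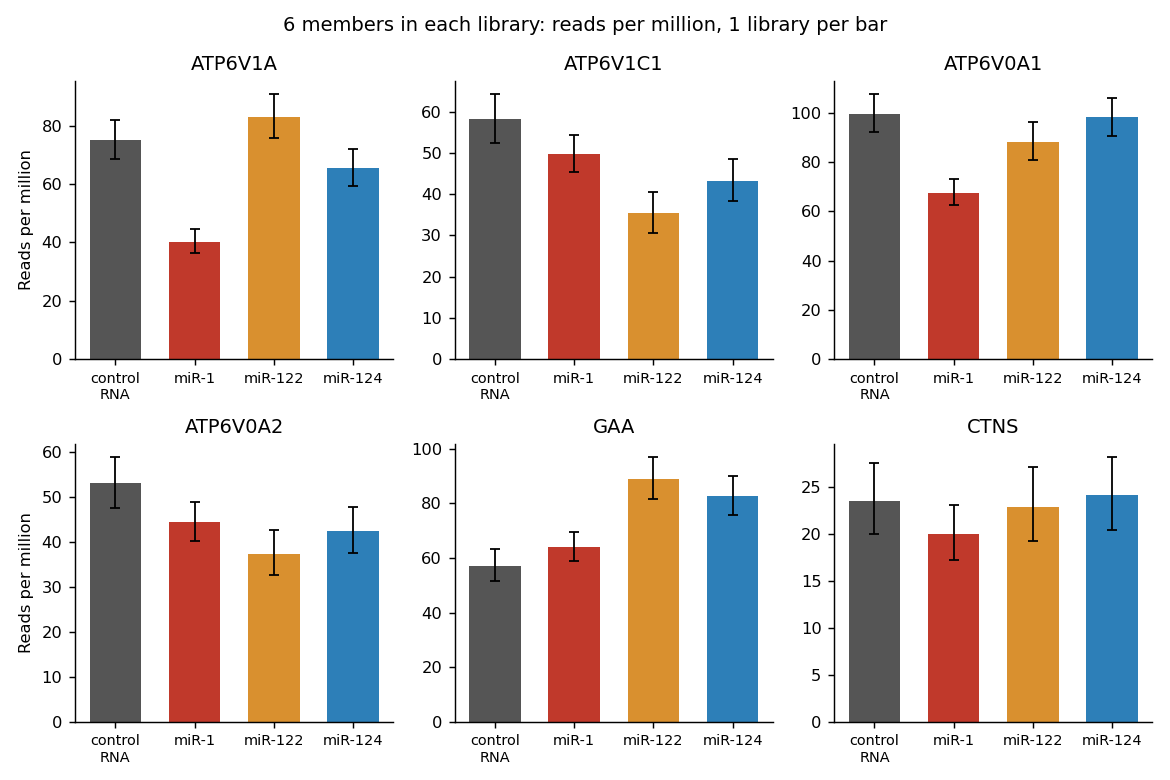
RPM of 6 members in each library, 1 bar per library, with exact 95% Poisson intervals for counting error. The bar of the miR-1 library is the lowest for ATP6V1A and ATP6V0A1, that of miR-122 for ATP6V1C1 and ATP6V0A2, and for GAA the bars of miR-122 and miR-124 are higher than the others.

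ATP6V1C1, one of the C subunits that join the peripheral stalks to the membrane sector, was the lowest member with miR-122. Its FPKM was 1.12 with the control RNA, 0.956 with miR-1, 0.680 with miR-122, and for miR-124 it was 0.830, from 208 to 470 reads. All 3 mimic libraries were below the control RNA library. The ratios were 0.856 (0.746 to 0.981), 0.608 (0.511 to 0.721), and 0.742 (0.634 to 0.868), and against the mean of the other 2 mimics that with miR-122 was 0.761. Adjusted, the log2 ratio was -0.60 with miR-122, from -0.72, and -0.26 with miR-124, from -0.43, which is short of the lower threshold. Its 3′ UTR of 4304 bases held no miR-122 site of any kind. It held an 8mer for miR-1 at base 3353 and a 7mer-m8 at base 4211. The library with the lowest level was that of miR-122, not that of miR-1.

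ATP6V1C2 is the other C isoform, better known from kidney and lung. Its level was 58.7 to 70.2 transcript RPKM, 5.69-fold to 11.2-fold that of ATP6V1C1. ATP6V1C1 made up 14.9% of the 2 levels with the control RNA, and its share was 12.0% with miR-1, 11.4% with miR-124, and lowest with miR-122, at 8.20%. Of the exonic bases of ATP6V1C2, 29.8% lie opposite to exons of other genes, mainly PDIA6, and whether the counting used strand is not given in the sources used here. Without strand the reads of PDIA6 and ATP6V1C2 cannot be told apart, and the order of the C isoforms is uncertain.

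ATP6V1F, a small subunit of the central rotor, was the highest member with miR-1. Its FPKM was 40.2 with the control RNA, 56.2 with miR-1, 47.7 with miR-122, and for miR-124 it was 54.7. The control RNA library was the lowest, and the ratios were 1.40 (1.28 to 1.52), 1.19 (1.08 to 1.31), and 1.36 (1.24 to 1.49). Against the mean of the other 2 mimics the ratio with miR-1 was 1.10. Adjusted, its log2 ratio was 0.23 with miR-1, from 0.48, and 0.17 with miR-124, from 0.44, both short of the lower threshold, and with miR-1 ATP6V0E1 was then above it. KCP lies opposite to 20.6% of its exonic bases. ATP6V1G2, an isoform of the stalk subunit G found mainly in neurons, had 89, 138, 92, and 124 reads in the control RNA, miR-1, miR-122, and miR-124 libraries. Its ratio was 1.43 with miR-124, with an interval from 1.08 to 1.90, and adjusted its log2 ratio was 0.47, from 0.51.

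In V0, ATP6V0A1 and ATP6V0A2 encode alternative a subunits, which form the proton path and direct the pump to its membrane. The FPKM of ATP6V0A1 was 1.56 with the control RNA, 1.06 with miR-1, 1.38 with miR-122, and for miR-124 it was 1.54, from 519 to 660 reads. The miR-1 library was the lowest, at a ratio of 0.677 (0.607 to 0.756) to the control RNA, and of 0.724 when the other mimics served as reference. Adjusted, its log2 ratio was -0.49, from -0.56. Of its pair of miR-1 sites, a 6mer starts at base 4631 and the 7mer-m8 printed above at base 5760 of 5797. HEXA, the alpha subunit of beta-hexosaminidase and also with a 7mer-m8 for miR-1 as its best site, had a ratio of 1.00 (0.857 to 1.18).

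The FPKM of ATP6V0A2 was 1.07 with the control RNA, 0.899 with miR-1, 0.756 with miR-122, and for miR-124 it was 0.860, from 220 to 420 reads. The control RNA library was the highest and the miR-122 library the lowest. The ratio with miR-122 was 0.703 (0.592 to 0.835), with 4.19% of all genes lower, and 0.859 against the mean of the other mimics. Adjusted, its log2 ratio was -0.39, from -0.51. Its 8mer for miR-122 starts at base 3509 of 3723. The same 3′ UTR holds a 7mer-A1 for miR-124 at base 105 and a 6mer for miR-1 at base 2479. The ratios of ATP6V0A2 with these mimics were 0.8004 (0.681 to 0.940) for miR-124 and 0.836 (0.724 to 0.966) for miR-1. The a1 isoform exceeded a2 in every library, by 2.41-fold with miR-1 and by 2.97-fold to 3.74-fold in the others, per kb of transcript.

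The other V0 and accessory genes had ratios near 1 with few exceptions. ATP6V0D1, which couples the rotor to the ring of V0, had FPKM of 1.07, 1.18, 1.44, and 1.07 in the control RNA, miR-1, miR-122, and miR-124 libraries, and its ratio of 1.35 (1.16 to 1.58) with miR-122 was the highest of this group. Its log2 ratio went from 0.43 to 0.30 on adjustment, just short of the lower threshold. ATP6V0E1, a small membrane subunit, had 1.66, 2.17, 1.74, and 1.74, with a ratio of 1.31 (1.18 to 1.46) for miR-1, the highest of the 4 libraries, and an adjusted log2 ratio of 0.38. ATP6V0B, a proteolipid of the ring, and ATP6AP1, an accessory subunit, differed between their highest and lowest library by 1.08-fold and 1.14-fold. ATP6V0E2 and ATP6AP2, also known as the prorenin receptor, lay between 0.863 and 1.16 with all mimics. ATP6V0C, the main proteolipid of the ring, had 9, 9, 7, and 12 reads in the 4 libraries. Other genes on the same strand share 76.3% of its exonic bases, which leaves its level uncertain.

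Within pairs of members, the order per kb of transcript was ATP6V1B2 over ATP6V1B1, ATP6V1G1 over ATP6V1G2, ATP6V0A1 over ATP6V0A2, and ATP6V0E1 over ATP6V0E2. TCIRG1, another isoform of the a subunit outside the members, had 16.5, 17.3, 17.8, and 21.3 transcript RPKM in the control RNA, miR-1, miR-122, and miR-124 libraries. It was above ATP6V0A2 in every library, and above ATP6V0A1 (16.4) in the miR-1 library only. ATP6V1B1, the B isoform of renal intercalated cells, had 17, 33, 26, and 27 reads, and ATP6V1B2 exceeded it by 22.6-fold to 41.6-fold. Of its exonic bases, 63.1% are shared with VAX2 on the same strand. ATP6V1G1 exceeded ATP6V1G2 by 7.29-fold to 11.8-fold, and ATP6V0E1 exceeded ATP6V0E2 by 1.30-fold to 1.8-fold. In these 4 pairs the order was the same in every library.

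**Figure D3:**
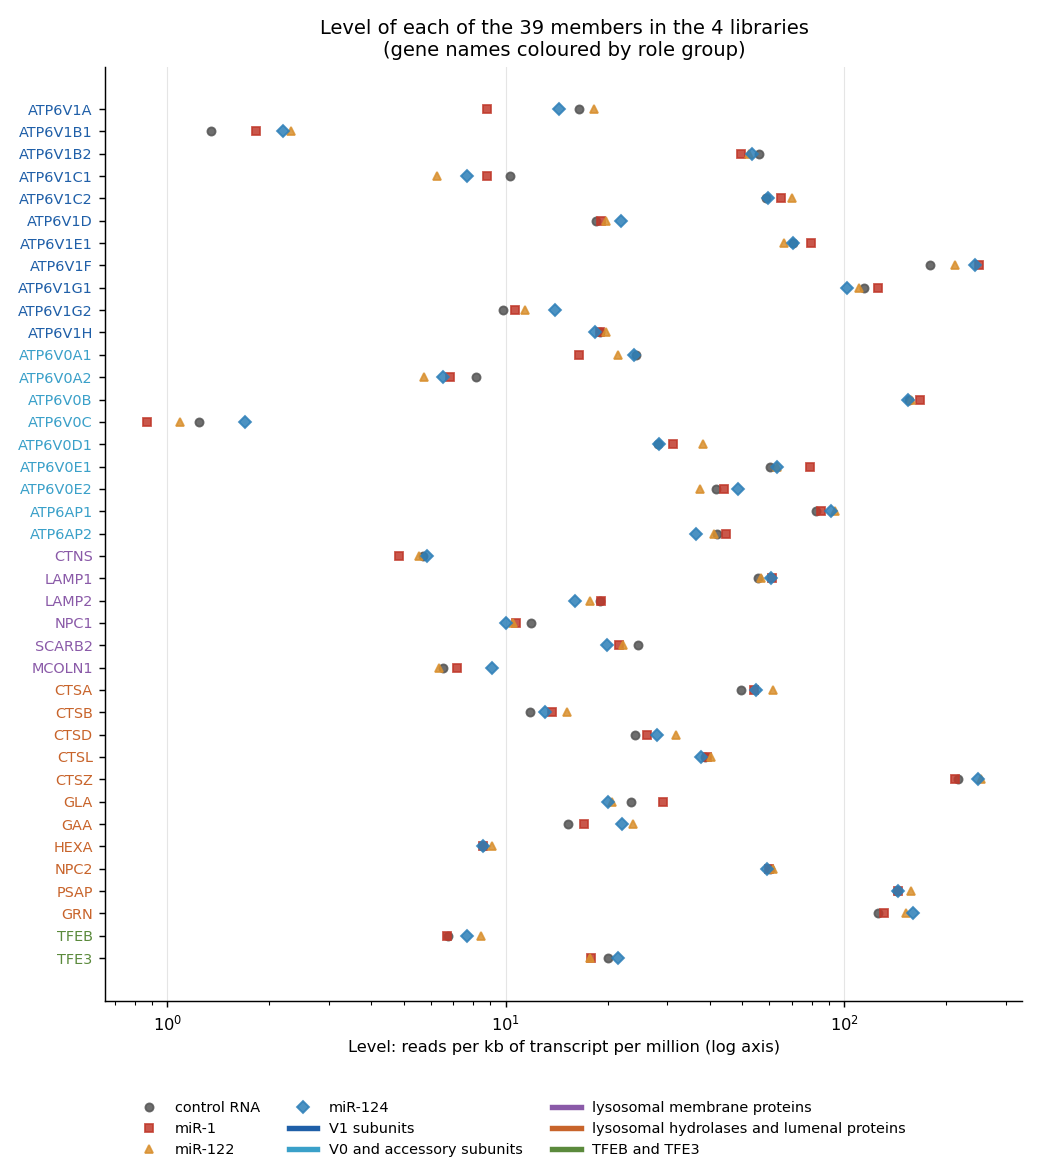
Level of all 39 members as transcript RPKM (log axis), 1 symbol per library. Levels span from 1.23 (ATP6V0C) to 233 (CTSZ) as means of the 4 libraries, and the spread between libraries is small beside that between genes.

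Across genes, the mean level of the 4 libraries was at least 100 transcript RPKM for 6 members, between 10 and 100 for 25, and under 10 for 8. The highest were CTSZ at 233, ATP6V1F at 221, ATP6V0B at 159, PSAP at 147, GRN at 142, and ATP6V1G1 at 113. The ranges over the libraries of CTSZ and ATP6V1F overlapped, as did those of ATP6V0B, PSAP, and GRN, so the order within these groups is not set. CTSZ carries the same doubt as ATP6V1C2, since 31.7% of its exonic bases lie opposite to NELFCD. Between libraries, 21 of the 37 tested members had a highest library less than 25% above the lowest, and 3 differed by 1.5-fold or more (ATP6V1A, ATP6V1C1, and GAA). The selection used the low value of ATP6V1A. The same counts over all genes tested are not given here, so whether this spread is usual is not known.

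Among the lysosomal membrane proteins, CTNS encodes cystinosin, which exports cystine from the lysosome. Its FPKM was 0.939 with the control RNA, 0.797 with miR-1, 0.915 with miR-122, and for miR-124 it was 0.962, from 135 to 189 reads. The miR-124 library was the highest, and CTNS holds an 8mer for miR-124 at base 818 of 2734. The ratio was 1.02 with an interval from 0.815 to 1.29, and a difference within that interval was not detectable at this depth. The adjusted log2 ratio with miR-124 was -0.11, from 0.04, and the 3′ UTR has 55.7% GC.

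MCOLN1, a calcium channel of the lysosome, had FPKM of 1.19, 1.31, 1.16, and 1.67 in the control RNA, miR-1, miR-122, and miR-124 libraries. The miR-124 library was the highest at a ratio of 1.40 (1.06 to 1.86). Its 3′ UTR has 56.5% GC, and the log2 ratio went from 0.49 to 0.16 on adjustment. LAMP1 and LAMP2 are the main glycoproteins of the membrane, NPC1 exports cholesterol, and SCARB2 carries glucocerebrosidase to the lysosome. LAMP2 had an 8mer for miR-1 that ends 4 bases before the end of its 3′ UTR of 5175 bases, and its ratio with miR-1 was 1.01 (0.919 to 1.10). SCARB2 had the lowest ratio of the group with miR-124, 0.807 (0.724 to 0.900), and adjusted its log2 ratio was -0.13, from -0.31. NPC1 and LAMP1 lay between 0.847 and 1.10 with all mimics.

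The hydrolases and other lumenal proteins had the highest group median with miR-122. Their median log2 ratio was 0.23, beside -0.02 for all genes, with 1 of 11 below 1, beside 53.6% of all genes. Of the 11, 3 were higher by 25% or more, beside 8.05% of all genes, and 0 were at or under a ratio of 0.8, beside 12.5%. Adjusted, the median was 0.11. With miR-1 the median was 0.05 and adjusted -0.02, and with miR-124 it was 0.15 and adjusted -0.02. The GC content of the 3′ UTR had a median of 49.0% in this group, beside 42.7% in all genes. Among 32 tested lysosomal enzymes outside the members, the median log2 ratio with miR-122 was 0.12, and adjusted it was 0.06. Of these 32, 13 were below 1, 3 were higher by 25% or more, and 1 was at or under a ratio of 0.8. None of these medians was tested, and the members were chosen with such results known.

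GAA, the acid alpha-glucosidase that degrades lysosomal glycogen, was the highest of them with miR-122 and miR-124. Its FPKM was 3.11 with the control RNA, 3.49 with miR-1, 4.86 with miR-122, and for miR-124 it was 4.51, from 378 to 605 reads. The miR-122 and miR-124 libraries were higher than the other 2, and their counting intervals overlapped each other but not those of the control RNA or miR-1. The ratio with miR-122 was 1.56 (1.36 to 1.79), with 99% of all genes lower, and with miR-124 it was 1.45 (1.27 to 1.66). Against the mean of the other 2 mimics the ratio with miR-122 was 1.21. The 3′ UTR had 60.2% GC, and adjusted the log2 ratio was 0.47 with miR-122, from 0.64, and 0.20 with miR-124, from 0.53.

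The cathepsins CTSB and CTSD, a cysteine and an aspartic protease, were also higher by over 25% with miR-122, at the lower threshold. CTSB had FPKM of 1.63, 1.90, 2.09, and 1.82 in the control RNA, miR-1, miR-122, and miR-124 libraries, and a ratio of 1.28 (1.09 to 1.51) with miR-122. CTSD had 4.18, 4.56, 5.53, and 4.85, and a ratio of 1.32 (1.14 to 1.54). Other genes share 27.3% of the exonic bases of CTSD on its strand and 23.4% on the opposite one. For both, the control RNA library was the lowest and the miR-122 library the highest. Adjusted, the log2 ratio of CTSB stayed at 0.36, and that of CTSD was 0.23, from 0.41, short of the lower threshold. CTSB held a pair of 7mer-A1 sites for miR-122, whereas CTSD held none.

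GRN, the precursor of the granulins, had FPKM of 33.5, 34.8, 40.5, and 42.4, and a ratio of 1.27 (1.19 to 1.35) with miR-124. Its 3′ UTR has 62.7% GC, and its log2 ratio with miR-124 went from 0.34 to -0.10 on adjustment. CTSA, the protective protein for neuraminidase, had ratios of 1.09, 1.24, and 1.11 with miR-1, miR-122, and miR-124. Of its exonic bases, 21.5% lie opposite to other genes. CTSZ, a carboxypeptidase, had ratios of 0.983, 1.17, and 1.15, and its longest 3′ UTR held an 8mer for miR-122 and another for miR-124. Neither 8mer is in the 3′ UTR of its representative transcript.

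GLA, alpha-galactosidase A, was the lowest of the group with miR-122 and miR-124 and the highest with miR-1. It had 205, 364, 160, and 171 reads in the control RNA, miR-1, miR-122, and miR-124 libraries. Its ratio was 1.24 (1.05 to 1.48) with miR-1 and 1.44 against the mean of the other 2 mimics. CTSL, NPC2, HEXA, and PSAP, the precursor of the saposins, were the steadiest. Their highest library exceeded the lowest by 1.04-fold to 1.10-fold, and NPC2, which hands cholesterol to NPC1, had the smallest spread of all tested members.

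The transcription factors were low to moderate in level. TFEB had 104, 148, 116, and 116 reads in the control RNA, miR-1, miR-122, and miR-124 libraries. Its ratio of 1.26 with miR-122 had an interval from 0.955 to 1.65, which includes 1, and an adjusted log2 ratio of 0.19, from 0.33. TFE3 had ratios of 0.886, 0.881, and 1.07, each with an interval that includes 1. A 7mer-m8 for miR-124 in TFEB came with a ratio of 1.14 (0.869 to 1.5).

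Sites were counted as a feature that the selection did not use. A 7mer or 8mer was found in 10 of 39 members for miR-1 (25.6%, beside 25% of all genes tested), in 12 for miR-122 (30.8%, beside 26.3%), and in 9 for the third miRNA (23.1%, beside 28%). For miR-124, 38.5% of members had a site of any type, beside 54% of all genes, and on the representative transcript 17.9% had a 7mer or 8mer, beside 26.9%. The 39 include ATP6V1B1 and ATP6V0C, which were not tested, whereas the background is of tested genes. The median length of the 3′ UTR was 1093 bases in tested members and 1612.5 in all genes tested. The part of length in these shares was not tested. The 9 tested members with such a miR-1 site had a median log2 ratio of -0.17 with miR-1, and the 23 with no site of any type had 0.10. These 9 include ATP6V1A, whose value the selection used, and the median of the other 8 was -0.08. For all genes the medians with and without a site were -0.18 and 0.00. With miR-122 the medians were -0.10 for 12 members with a 7mer or 8mer and 0.10 for 22 with no site, beside -0.07 and 0.00 for all genes. On the 3′ UTR of the representative transcript, 8 members held such a site (20.5%, beside 24.2%), and their median was 0.01, so the sign turned. With miR-124 they were 0.05 for 8 members and 0.13 for 23, beside -0.14 and 0.02.

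The members with a miR-1 site of 7 or 8 letters spread widely. In order of ratio they were ATP6V1A at 0.536, ATP6V0A1 at 0.677, ATP6V1C1 at 0.856, ATP6V1B2 at 0.885, TFE3 at 0.886, HEXA at 1.00, LAMP2 at 1.01, GAA at 1.12, and CTSB at 1.16. ATP6V1A and ATP6V0A1 were the lowest 2, and the interval of ATP6V1A overlapped that of ATP6V0A1 but not those of the other 7. The A and U content of the 60 bases around the site was 63.3% for ATP6V1A, 51.7% for ATP6V0A1, and 70% for the 7mer-m8 of HEXA. All 3 genes have 7mer-m8 as their best site, so its type could not order them. After this site, 2450, 31, and 195 bases remained in the 3′ UTRs of ATP6V1A, ATP6V0A1, and HEXA, and HEXA also holds a 7mer-A1. Whether any of these features relates to the ratios was not tested.

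**Figure D4:**
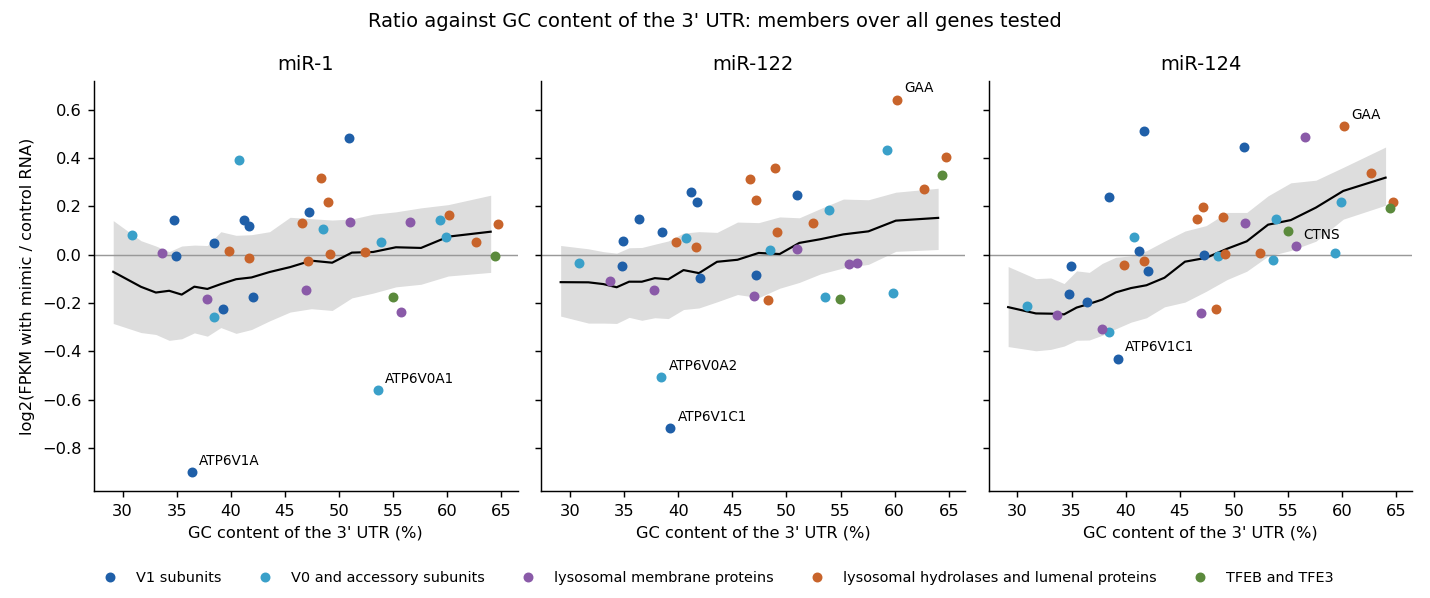
log2 ratio to the control RNA against the GC content of the 3′ UTR for the tested members (points, coloured by role group), over the median (line) and quartiles (band) of all genes tested in 20 bins of GC content. Spearman's rho over the 37 members was highest with miR-124, at 0.65, and ATP6V1A with miR-1 and ATP6V1C1 with miR-122 are among the members below the band.

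The members had 3′ UTRs richer in GC than other genes, with a median of 47.2% beside 42.7%, and with all genes in 5 groups of rising GC content, 22 of 37 lay in groups 4 and 5. Their rho with the log2 ratio was 0.65 for miR-124, 0.34 for miR-122, and 0.19 for miR-1. With miR-124, the 9 members in group 5 had a median log2 ratio of 0.22, where all its genes had 0.23. The 6 members in group 2 had -0.25, where all its genes had -0.19. Adjusted for GC content, lengths, and reads together, the median of the 37 members was -0.06 with miR-124, 0.03 with miR-122, and -0.02 with miR-1. The adjusted medians of all genes tested were -0.06, -0.02, and -0.05.

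A promoter word of the E-box-like type described above was also counted. The selection did not use the word, but it used functions whose genes are known for such elements, so the share is a description only. Windows from 250 bases before to 50 after the start were given for 30 members (RefSeq, GRCh38.p14), and those of ATP6V1A, ATP6V1B2, ATP6V1C1, ATP6V1H, ATP6V0E1, LAMP2, CTSB, HEXA, and PSAP were not analysed here. The word TCACGTG, on either strand, was in 9 of 30 (30%), beside 7.43% of 9677 promoters of tested genes and 4.49% of all 27305. CACGTG, which is contained in it, was in the same 9 members, beside 12.9% and 8.77%. They were ATP6V1G1, ATP6V0B, ATP6V0D1, ATP6V0E2, LAMP1, MCOLN1, CTSA, CTSD, and GAA. Of these, ATP6V0D1, MCOLN1, CTSD, and GAA were higher by 25% or more in a comparison, and the others were not. The windows of 19 tested members lacked the word, and of these ATP6V1F, ATP6V1G2, GRN, and TFEB were also higher by 25% or more. The share of all genes higher by 25% or more in any comparison is not given here. Whether the word goes with an increase was not tested. Stretches of 30 bases around the word are shown for the members that were higher by 25% or more in any comparison, with the word in capitals and read along the gene, or its complement where it lies on the other strand.
ATP6V0D1, chr16:67481199-67481228, minus strand: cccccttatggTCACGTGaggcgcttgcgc
MCOLN1, chr19:7522598-7522627, plus strand: gggctaccgggTCACGTGaccgaggcacag
CTSD, chr11:1763956-1763985, minus strand: ccggccgcgccCACGTGAccggtccgggtg
GAA, chr17:80101538-80101567, plus strand: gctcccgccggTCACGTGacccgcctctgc

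The 9 members with the word had a median log2 ratio of 0.13 with miR-1, and the 19 tested members whose promoter lacked it had 0.02. With miR-122 these medians were 0.02 and 0.03, and with miR-124 they were 0.15 and 0.02. The median GC content of the 3′ UTR was 56.5% in the former and 47.2% in the latter. Adjusted for the trends, the medians were -0.02 and -0.06 with miR-1, -0.03 and 0.02 with miR-122, and -0.06 and -0.09 with miR-124. A match of letters is no evidence of binding, and no match says only that the letters are not in the window.

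Further genes of the same pathway were listed apart from the members, and 93 of 105 were tested. With miR-1, 5 were lower by 1.5-fold (5.38%) and 1 was higher. With miR-122 the counts were 2 and 0, and with miR-124 they were 3 and 3. Of the 93, the lower ones were 2.15% with miR-122 and 3.23% with miR-124, beside the shares of all genes given above.

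Among assembly factors of the pump, VMA21, a chaperone of V0, had a ratio of 0.603 (0.522 to 0.697) with miR-1 and 0.764 against the mean of the other mimics. TMEM199, another such factor, had 1.51 (1.21 to 1.89) and 1.14. WDR7 and NCOA7, which take part in regulating the pump, had 0.637 and 0.654 with miR-124, and DMXL1, of the RAVE complex that joins V1 to V0, had 0.654 with miR-122. This list had the lowest medians with miR-1 and miR-124, -0.27 and -0.26 on the log2 scale, which were -0.09 and -0.13 when adjusted. In the sorting of hydrolases by mannose 6-phosphate, GNPTAB, which makes the tag, had 0.595 (0.509 to 0.696) with miR-1 and 0.800 against the other mimics, and AP1S1, of the AP-1 coat, had 0.665 (0.580 to 0.763) and 0.622. In the Ragulator, Rag, and TFEB list, FNIP2 had 0.566 (0.457 to 0.701) with miR-1 and 0.694 against the other mimics. Of the 17 tested genes in this list, 0 passed 1.5-fold with miR-122 or miR-124, beside the shares of all genes given above.

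Among other lysosomal enzymes, FUCA1, the alpha-L-fucosidase, had a ratio of 0.570 (0.469 to 0.693) with miR-1 and 0.573 against the mean of the other mimics. ARSA, arylsulfatase A, and IDUA, alpha-L-iduronidase, had 1.71 (1.33 to 2.21) and 1.70 (1.22 to 2.37) with miR-124, from 172 and 101 reads in that library. CTBS, a lumenal hydrolase counted in the list of other membrane and transport proteins, had 0.660 with miR-122 and 0.571 with miR-124. In the same list TMEM175, a lysosomal cation channel, had 1.64 with miR-124, from 90 reads with the control RNA and 144 with the mimic. Adjusted, every one of these genes past 1.5-fold with miR-122 or miR-124 was short of it, with log2 ratios of 0.57 for ARSA, 0.53 for IDUA, 0.44 for TMEM175, -0.47 for WDR7, -0.38 for NCOA7, and -0.43 for DMXL1, and of -0.45 and -0.56 for CTBS. Of the other V-ATPase isoforms, ATP6V0A4, ATP6V0D2, and ATP6V1G3 had 6, 0, and 1 reads in all, and TCIRG1 and ATP6V1E2 did not pass 1.5-fold with any mimic.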

How the data were processed

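mRNA-seq of 293T cells was analysed in 4 libraries, 1 for each condition as the labels give it. According to the submitters' processing notes and the methods, the authors called bases with CASAVA 1.8, trimmed the single-end reads, aligned them to GRCh38 with HISAT2 2.0.0, and deposited FPKM values, with 1 value for each gene in a library. The program that counted reads, its annotation, and its use of strand are not given in the sources used here.

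The members and all lists were chosen with earlier results of these data known. Symbols were matched to Ensembl identifiers through GENCODE release 44. The deposited FPKM values are whole multiples of the value of 1 read, with a gene length equal to the distance from start to end, introns included. Whole reads in all libraries (tolerance 0.002) were recovered for 31932 of 32010 annotated genes above 0 (99.8%). Where several lengths gave whole reads, the one nearest to a GENCODE or RefSeq span was taken if within 10% of it, otherwise the smallest. This rule was set after seeing the data, and lengths of all 39 members lay within 10% of a span. Recovered reads summed to 104% of the divisor in each library, and the source of the excess was not tested. Levels between genes are per kb of the representative transcript.

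Ratios were taken without a pseudocount for genes above 0.004 in both libraries, the study's threshold, and with at least 200 reads over the 4 libraries. Adjusted values subtract a cubic trend with 3′ UTR GC and length, span, and reads, which explained 45.0% of the variance with miR-124, 18.3% with miR-122, and 19.7% with miR-1. Named genes were ATP6V1A, CTNS, the members past 1.5-fold, the lowest and highest 3 with each mimic and the lowest and highest of each role group, isoform pairs, members with an 8mer or too few reads, and the lowest and highest of each other list. Of the last, those past 1.5-fold are named, and AP1S1, NCOA7, and IDUA were added to them after their values were seen. Members outside the rule are given so that each is accounted for. A marker of the embryonic kidney line, and the sum of that list, are not reported here. The steps were tested on simulated data. Alternatives were other folds, a pseudocount of 1 or 0.1, the average over the other mimics as reference, centring, other filters, the adjustment, and the 3′ UTR of 1 representative transcript. The computations ran in Python 3.11.15 with scipy 1.17.1, numpy 2.4.6, and pandas 2.3.3, and figures were drawn in matplotlib 3.10.9.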

Additional observations from a re-analysis of the deposited data

How the results depend on the processing

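No paired analysis was possible because there was 1 library per condition, and for the same reason no library could be left out. With ratios of at most 0.8 or at least 25% above 1, 2 members were lower and 2 higher with miR-1, 2 lower and 5 higher with miR-122, and 1 lower and 5 higher with miR-124. The shares of all genes at that threshold are given above. With a fold of 2, the members lower numbered 0 with miR-1 and 0 with miR-122, and 0 were higher with miR-122. Of all genes, these shares were 0.534%, 0.212%, and 0.126%. With a pseudocount of 1, 0 members were lower with miR-1, and with miR-122 0 were lower and 0 higher. Here the shares of all genes were 0.471%, 0.22%, and 0.33%. The pseudocount draws the ratios of genes with an FPKM near 1 towards 1, and the log2 ratio of ATP6V1A with miR-1 was then -0.41. Against the mean of the other 2 mimics, 0 members were lower with miR-122, and the 1 member higher with miR-122 was ATP6V1A in place of GAA, at a log2 ratio of 0.65 with the miR-1 library in the reference. All genes had shares of 0.888% lower and 0.943% higher with that reference. With no filter on reads, 2 of 39 members were higher with miR-122, beside 10.1% of all genes, and 1 with miR-124, beside 10.7%. ATP6V1B1 was added to each. With a mean FPKM of at least 1, 0 of 30 members were lower with miR-122, since ATP6V1C1 is below that mean, beside 4.84% of all genes. Adjusted for GC content, lengths, and reads, 0 were higher with miR-122, beside 0.803% of all genes.

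The median of the members with miR-1, 0.05, was -0.04 against the mean of the other mimics and -0.02 when adjusted. All genes tested had -0.02 and -0.05 in these settings. The median of the members with miR-124, 0.01, was -0.04 and -0.06, beside -0.01 and -0.06 for all genes. Both member medians changed sign, but the adjustment adds the median of all genes back, so 0 is not its reference. On the representative transcript, 7 members held a 7mer or 8mer for miR-124, 8 for miR-122, and 10 for miR-1. Depth limited single members to differences of more than about 1.13-fold to 1.14-fold at the median, and the lack of replicates limits all of them. Leaving ATP6V1A out of the members with a miR-1 site, chosen after seeing the data, moved their median log2 ratio with miR-1 from -0.17 to -0.08.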
